A study of Mus musculus with 3 samples.

Results

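Distal narrow H3K4me1 regions without Runx3 were examined in freshly isolated, resting natural killer cells (NKC) from the spleen of ICR mice. H3K4me1, histone H3 monomethylated at lysine 4, and the transcription factor Runx3 were each mapped by ChIP-seq in 1 sample, with non-immune rabbit serum (NIS) as the control in a separate library. The groups differed only in the antibody, since no genotype or treatment was varied. The labels state that the cells were sorted on NKp46, whereas the study's methods state DX5. Each antibody is represented by a single list of region coordinates on mm9, with 49902 H3K4me1 regions and 15524 Runx3 peaks, so no spread between replicates exists and no p-value is given. Local depth and peak height were not read from the lists, and a region without a peak is one in which no peak was called.

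The regions described were selected on width, on overlap and on position. A member was under 3.18 kb wide, shared 0 bp with every Runx3 peak and had its midpoint at least 5 kb from the nearest annotated transcription start site (TSS). Of the 49902 H3K4me1 regions, 39921 were under the width limit, 31428 of those shared no base with a Runx3 peak, and 17357 of those were also distal. The 17357 members therefore made up 34.8% of the list, and with 28.0 Mb they held 21.9% of its bases. Among the 19623 narrow distal regions, 88.5% were members and the other 2266 overlapped a Runx3 peak. The latter are called Runx3-bound and served as the comparison, because they met the same limits on width and position. Over the whole H3K4me1 list, 71.4% of regions were free of Runx3. These shares come from the values that chose the members and are descriptions.

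H3K4me1 marks enhancers, both active and poised, and the flanks of active promoters. A monomethylated region far from a TSS is commonly read as a candidate enhancer, which is bound by several transcription factors at once. Runx3 is a member of the RUNX family and is highly expressed in NKC and CD8+ T cells. RUNX proteins bind the hexamer TGTGGT and its variants TGTGGC and TGCGGT as well as TGCGGC, together with the partner Cbfb, often beside a site for an ETS factor such as Ets1. The members are the narrow enhancer-like regions of these cells in which the Runx3 list had no peak. A further 2200 distal regions free of Runx3 were over the width limit and are not members.

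Both kinds of site were read from the mm9 reference, which is not the genome of an ICR mouse. The RUNX consensus was any of the 4 hexamers above, and the ETS consensus was AGGAAGT or CGGAAGT, each on either strand. A pair was a RUNX and an ETS match with starts at most 50 bp apart. The windows printed here show how members with and without these letters look at genes of lymphocytes. Their classes were set by matches in the central 200 bp alone. Over whole regions, 93.9% of members held RUNX and 52% held ETS. In each class the 2 members closest to the start of a gene on lists of NKC receptors, effectors, trafficking molecules, cytokine receptors or lymphoid transcription factors were taken. Each window is the central 200 bp of its region, given 5′ to 3′ on the plus strand, with RUNX and ETS matches of either strand in capitals.

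The first members hold a pair. The first lay in intergenic sequence 13.3 kb from the start of Ifnar2, a chain of the type I interferon receptor, and 2.50 kb from the nearest Runx3 peak. The second was in an intron, 16.3 kb from the start of Rab27a, a GTPase of lytic granule exocytosis, and 10.8 kb from a peak.
Ifnar2 pair (chr16:91359622-91359821): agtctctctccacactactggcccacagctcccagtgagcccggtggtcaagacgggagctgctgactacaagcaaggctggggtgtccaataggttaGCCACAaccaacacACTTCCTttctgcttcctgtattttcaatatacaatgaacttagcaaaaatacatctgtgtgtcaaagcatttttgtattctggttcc
Rab27a pair (chr9:72908843-72909042): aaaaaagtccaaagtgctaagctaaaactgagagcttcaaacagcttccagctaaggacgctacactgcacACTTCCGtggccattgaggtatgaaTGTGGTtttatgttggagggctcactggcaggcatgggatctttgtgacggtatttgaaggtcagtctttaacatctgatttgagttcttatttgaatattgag

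Members with a RUNX match alone are shown by Ikzf2, which encodes the zinc finger factor Helios, and by Il21r, the receptor for interleukin 21. They lay 6.04 kb and 6.13 kb from these starts, and 1.66 kb and 2.19 kb from the nearest Runx3 peak.
Ikzf2 RUNX alone (chr1:69738470-69738669): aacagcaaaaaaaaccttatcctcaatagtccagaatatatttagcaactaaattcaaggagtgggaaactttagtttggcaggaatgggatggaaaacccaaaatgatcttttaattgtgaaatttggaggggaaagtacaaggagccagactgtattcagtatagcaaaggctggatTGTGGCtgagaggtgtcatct
Il21r RUNX alone (chr7:132740716-132740915): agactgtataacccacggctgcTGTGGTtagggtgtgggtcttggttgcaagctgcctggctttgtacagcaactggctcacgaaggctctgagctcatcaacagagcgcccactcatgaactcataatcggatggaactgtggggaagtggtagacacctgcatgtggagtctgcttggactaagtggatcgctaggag

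Members with an ETS match alone are shown by Id2, an inhibitor of E proteins needed for NKC development, and by Foxp1, a forkhead factor of lymphocyte quiescence. Their distances from the start were 5.29 kb and 6.29 kb. The Id2 member was 3.68 kb and the Foxp1 member 29.1 kb from a Runx3 peak.
Id2 ETS alone (chr12:25786142-25786341): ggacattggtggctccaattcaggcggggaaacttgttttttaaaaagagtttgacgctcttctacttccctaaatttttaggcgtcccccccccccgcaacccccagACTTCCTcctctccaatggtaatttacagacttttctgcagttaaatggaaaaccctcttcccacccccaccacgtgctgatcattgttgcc
Foxp1 ETS alone (chr6:99119200-99119399): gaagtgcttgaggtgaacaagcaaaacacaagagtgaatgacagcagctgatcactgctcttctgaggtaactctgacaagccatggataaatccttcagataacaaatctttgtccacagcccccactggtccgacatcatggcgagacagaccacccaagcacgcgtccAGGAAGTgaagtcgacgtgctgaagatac

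Members with neither are shown by Klrc2, an NKG2 family receptor gene, and by Lyst, the lysosomal trafficking regulator. They lay 5.03 kb and 5.06 kb from the starts, and 13.9 kb and 4.08 kb from a peak.
Klrc2 neither (chr6:129615633-129615832): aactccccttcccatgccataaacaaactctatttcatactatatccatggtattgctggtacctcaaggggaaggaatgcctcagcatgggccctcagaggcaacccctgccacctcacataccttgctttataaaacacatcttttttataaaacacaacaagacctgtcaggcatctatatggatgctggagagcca
Lyst neither (chr13:13687634-13687833): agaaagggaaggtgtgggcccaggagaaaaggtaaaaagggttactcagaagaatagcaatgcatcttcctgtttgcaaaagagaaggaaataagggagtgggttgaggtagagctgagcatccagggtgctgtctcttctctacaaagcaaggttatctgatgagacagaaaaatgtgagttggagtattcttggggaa

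For comparison, the Runx3-bound narrow distal regions with a central pair that were closest to a start on the same lists were intergenic, 21.6 kb from Zeb2 and 124.5 kb from Ets1. Zeb2 is a zinc finger factor of NKC maturation and Ets1 is itself an ETS factor.
Zeb2 pair, Runx3-bound (chr2:44994460-44994659): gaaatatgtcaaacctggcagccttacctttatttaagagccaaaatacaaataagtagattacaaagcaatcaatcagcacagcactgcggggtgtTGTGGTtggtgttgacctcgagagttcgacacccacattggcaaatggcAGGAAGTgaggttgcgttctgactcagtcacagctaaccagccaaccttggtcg
Ets1 pair, Runx3-bound (chr9:32628012-32628211): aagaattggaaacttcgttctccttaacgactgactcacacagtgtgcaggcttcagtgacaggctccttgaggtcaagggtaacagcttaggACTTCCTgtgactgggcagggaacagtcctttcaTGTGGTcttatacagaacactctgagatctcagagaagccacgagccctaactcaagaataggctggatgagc
Capitals mark the same consensus sequences in bound and free windows, and the windows were chosen by class, so their likeness follows from the choice. In the central 200 bp, 602 members (3.47%) had a pair, 348 (2.0%) had both consensus sequences further apart, 5798 (33.4%) had RUNX alone, 1311 (7.55%) had ETS alone and 9298 (53.6%) had neither. Of the bound regions, 4.63% had a pair, 42.2% had RUNX alone, 4.81% had ETS alone and 45.7% had neither.

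RUNX sequences were common at the members, and more common at bound regions. In a window of 500 bp about the midpoint, 12057 of 17357 members (69.5%, 95% Wilson interval 68.8 to 70.1%) held at least 1 RUNX match. The share was 80.8% (79.1 to 82.4%) in the 2266 bound regions. The bound regions exceeded the members by 11.3 percentage points (Newcombe interval 9.53 to 13.1). Over all H3K4me1 regions the background share was 65.3%. Among all 5111018 windows of the same length that tile the genome it was 50.4%. Intervals cover counting error over regions only, and neighbouring regions are not independent replicates.

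The members' own surroundings gave a nearer reference. In windows of the same length centred 2 kb to either side, 55.5% held a RUNX match for members and 56.0% for bound regions. The central share was thus 1.25 times that of the flanks in members and 1.44 times in bound regions. In the central 200 bp the members had 2.60 RUNX matches per kb, against 1.71 per kb at 2 to 3 kb from the midpoint. Bound regions had 3.91 matches per kb in the centre and the same 1.71 per kb outside.

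**Figure D1:**
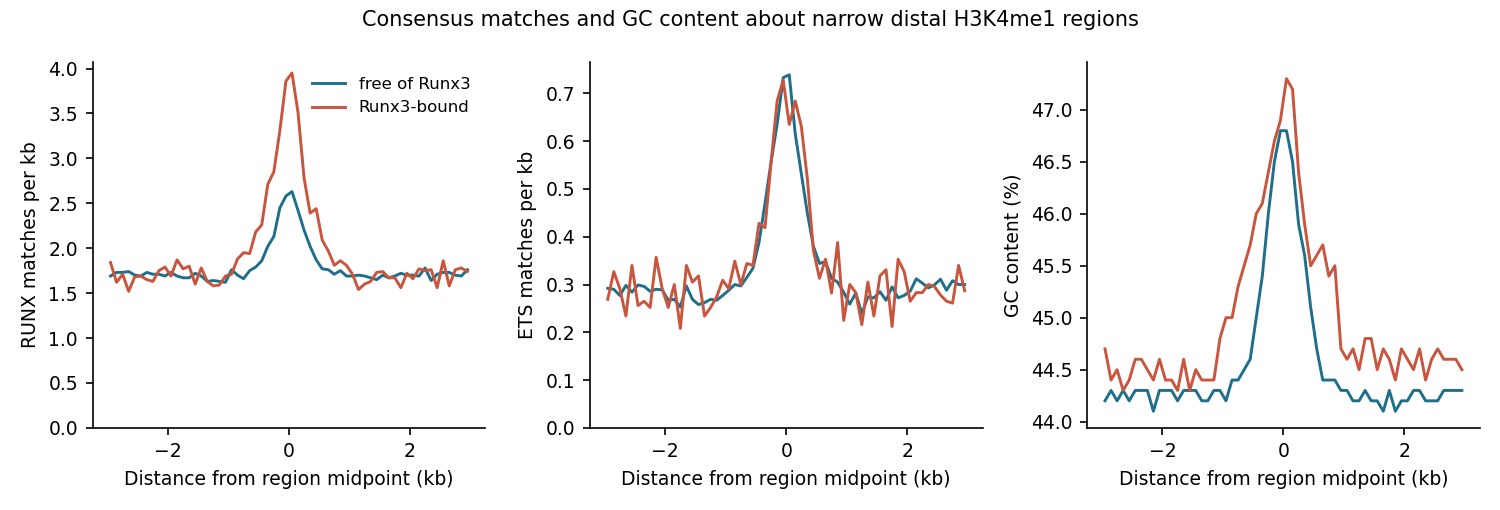
RUNX matches per kb, ETS matches per kb and GC content (%), in bins of 100 bp by distance (kb) from the midpoint of narrow distal H3K4me1 regions that were free of Runx3 (17357) or Runx3-bound (2266). In the central 200 bp RUNX matches reached 2.60 per kb in free and 3.91 per kb in bound regions, while ETS matches reached 0.736 and 0.681 per kb. The GC axis does not start at 0.

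The 4 RUNX hexamers did not differ alike. TGTGGT was found in 45.1% of members and 60.8% of bound regions, a difference of 15.7 points (13.5 to 17.8). TGTGGC was found in 36.8% and 40.4%, a difference of 3.60 points (1.47 to 5.76). The CpG-containing TGCGGT was rarer, with 6.02% of members and 11.3% of bound regions, and the share of bound regions was above that of members by 5.32 points (4.03 to 6.74). TGCGGC was found in 5.53% and 7.06%, with a difference of 1.53 points (0.486 to 2.71). In the flanking windows TGTGGT was found beside 34.4% of members and 34.3% of bound regions, and TGCGGT beside 3.63% and 3.29%. TGTGGC was found beside 27.7% and 29.3%, and TGCGGC beside 3.37% and 3.57%.

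The number of RUNX matches also differed. Members had a mean of 1.22 matches in the 500 bp window and bound regions 1.74. No match was found in 30.5% of members and 19.2% of bound regions, and 3 or more in 12.6% of members and 25.2% of bound regions. Read the other way, the share of narrow distal regions that were free of Runx3 fell with each further match. It was 92.4% (91.7 to 93.1%) of the 5735 regions without a match, 89.9% with 1 match, 86.7% with 2 and 79.2% (77.7 to 80.7%) of the 2751 regions with 3 or more. The intervals of these 4 classes did not overlap. Even with 3 or more RUNX hexamers, 2179 of 2751 regions had no called Runx3 peak.

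ETS sequences were as frequent at members as at bound regions when all widths were pooled. An ETS match was found in 4767 members (27.5%, 26.8 to 28.1%) and in 27.7% (25.9 to 29.5%) of bound regions, which differed by 0.205 points (-1.72 to 2.20). The background share was 21.5% over all H3K4me1 regions and 12.4% over all genome windows. The flanking windows held a match in 12.9% for members and 13.3% for bound regions, so the centre was 2.13 times and 2.07 times as high. The free share was 88.5%, 88.4%, 88.4% and 88.5% of regions with 0, 1, 2 and 3 or more ETS matches.

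This pooled value hid opposite differences by width. Bound regions were wider, with a median of 2254 bp (quartiles 1746 and 2677.5 bp) against 1484 bp (1150 and 1970 bp) in members. The free share fell from 96.6% of regions under 1000 bp to 67.6% of those of 2500 bp or more, and a wider region has more bases to share with a peak. Among regions under 1500 bp, ETS matches were found in 29.2% of 8858 members and 21.6% of 357 bound regions, a difference of -7.66 points (-11.7 to -3.01). At 1500 to under 2500 bp the values were 26.9% and 28.9%, a difference of 2.0 points (-0.807 to 4.93). At 2500 bp or more they were 20.3% of 1675 members and 28.6% of 803 bound regions, a difference of 8.34 points (4.73 to 12.1). The widest members thus had the lowest ETS share of the 3 width classes of members.

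The RUNX difference kept its sign in each width class. It was 5.22 points (0.477 to 9.41) under 1500 bp, 16.6 points (14.1 to 18.9) at 1500 to under 2500 bp and 12.6 points (8.81 to 16.2) at 2500 bp or more. These classes were added after the data were seen. A window about the midpoint did not always cover the Runx3 peak. The peak midpoint lay inside the 500 bp window in 61.8% of bound regions, at a median of 185.5 bp from the region midpoint. When the bound windows were centred on the peak midpoint instead, 92.8% held RUNX and 34.2% ETS, against the members' 69.5% and 27.5%. That comparison sets a window chosen by the peak against one that was not.

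**Figure D2:**
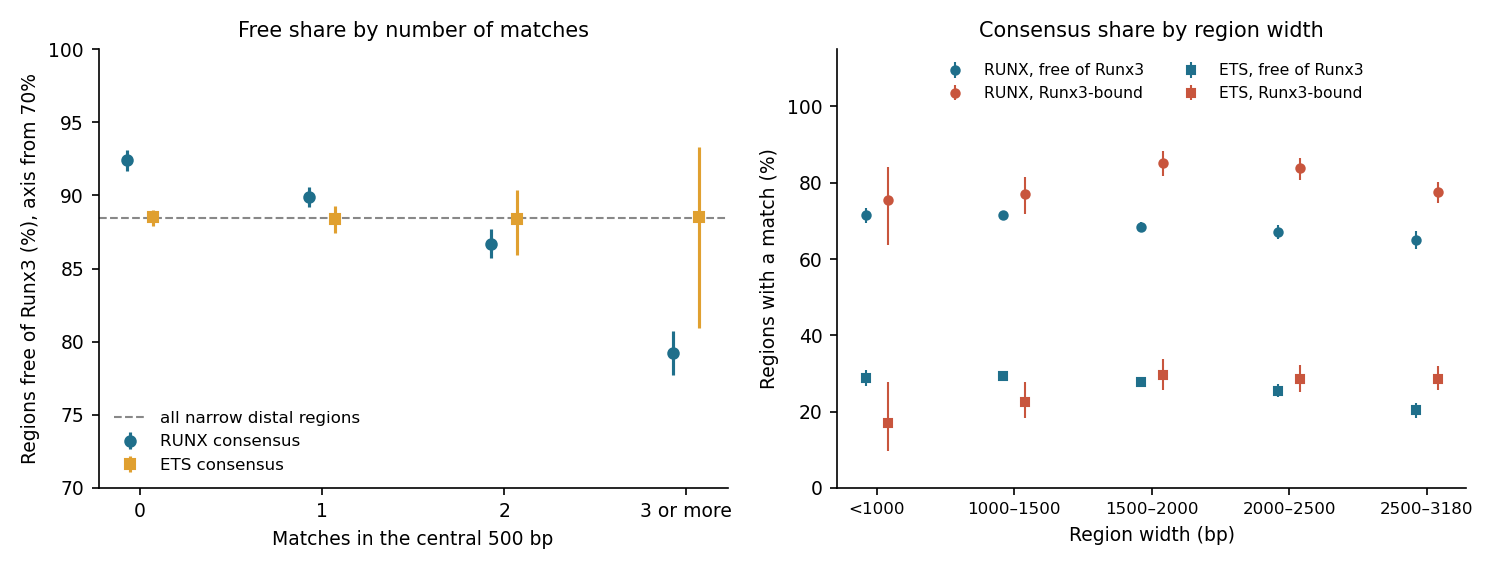
Left, share of narrow distal regions free of Runx3 (%, axis from 70%) by the number of RUNX or ETS matches in the central 500 bp, with the share of all narrow distal regions as a dashed line. Right, share of regions with a RUNX or an ETS match (%) by region width (bp) in free and Runx3-bound regions. Error bars are 95% Wilson intervals over regions. The free share fell from 92.4% to 79.2% with RUNX matches and stayed between 88.4% and 88.5% with ETS matches, while on the right the ETS share of bound regions passed from below to above that of free regions as width rose.

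Pairs of ETS and RUNX matches were less frequent in members than in bound regions. A pair was found in 1332 members (7.67%, 7.29 to 8.08%) and in 11.9% (10.6 to 13.3%) of bound regions, a difference of 4.20 points (2.87 to 5.65). The background was 5.61% over all H3K4me1 regions and 1.79% over genome windows, and 2.09% of the members' flanking windows held a pair. Under 1500 bp the pair was equally frequent, with 8.66% of members and 8.68% of bound regions (difference 0.0246 points, -2.55 to 3.45). At 2500 bp or more it was found in 3.94% and 13.2%. Both consensus sequences, at any spacing in the 500 bp, were found in 18.9% of members, RUNX only in 50.6%, ETS only in 8.56% and neither in 22.0%. The free share of narrow distal regions was 86.3% with both, 87.0% with RUNX only, 93.5% with ETS only and 92% with neither.

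Base composition was close in both sets. The median GC content of the 500 bp window was 46.4% in members (quartiles 42.6 and 50.2%) and 46.8% in bound regions (43.0 and 50.6%), with 46.8% over all H3K4me1 regions. The flanks of members had a median of 44.4% upstream and 44.2% downstream. CpG dinucleotides had a median of 1.00 per 100 bp in members and 1.20 in bound regions, whereas narrow proximal regions free of Runx3 had 1.80. RUNX was more frequent in bound regions than in members in each of 5 GC classes, by between 10.1 and 12.7 points, and each interval was above 0. In genome windows the RUNX share rose from 42.6% under 40% GC to 69.1% at 55% GC or more, while in members it ran from 58.3% to 73.1%. At 55% GC or more the ETS share was 23.6% in members and 31.1% in bound regions (difference 7.49 points, 0.756 to 14.9), and in the other 4 GC classes the ETS interval included 0.

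Consensus sequences of other factors were searched in the same windows as a description. T-box factors (AGGTGTGA), which include Tbx21 and Eomes of NKC, had a match in 4.22% of members and 4.37% of bound regions, against 3.45% over all H3K4me1 regions and 1.95% of genome windows. A PU.1-type ETS sequence (GAGGAAGT), each match of which is also an ETS match, was found in 7.41% and 8.12%, against 5.64% and 3.01%. The insulator factor CTCF was the consensus with the highest ratio to the flanks among single motifs in members, with 1.61% in the centre and 0.340% in the flanks. It was found in 1.77% of bound regions, 1.15% of all H3K4me1 regions and 0.242% of genome windows. AP-1 (TGAGTCA or TGACTCA), the site of Jun and Fos dimers, was found in 11.5% and 12.5%, against 9.79% and 7.68%. For each of these 4 the interval of the difference between members and bound regions included 0.

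The E-box, either CAGGTG or else CAGCTG, was found in 49.8% of members and 49.6% of bound regions. The shares were 49.7% over all H3K4me1 regions and 38.5% of genome windows, and the same 2 references follow for each factor. IRF sequences were found in 9.30% and 8.21%, against 7.88% and 8.2%. NF-kB was found in 8.25% and 8.21%, against 9.20% and 6.07%. The STAT consensus TTCNNNGAA was found in 15.7% and 14.3%, against 15.0% and 17.8%. C/EBP (TTGCNNAA) was found in 20% and 20.6%, against 19.3% and 21.9%. The octamer ATGCAAAT was found in 2.82% and 2.47%, against 2.48% and 4.36%. These 6 differences between members and bound regions had intervals that included 0. GATA and SP1 were the other factors whose interval did not include 0. The GATA factor consensus, either AGATAA or else TGATAA, was found in 40.9% of members and 37.5% of bound regions (difference -3.41 points, -5.51 to -1.27). The share was 37.9% over all H3K4me1 regions. It was higher than in members in genome windows (49.3%) and in the members' flanking windows (42.3%). In the whole region rather than the central window, GATA was instead higher in bound regions by 7.87 points. SP1 (GGGCGG), a GC-rich promoter element, was found in 10.7% and 12.4% (difference 1.65 points, 0.278 to 3.14), against 15.5% and 4.58%.

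**Figure D3:**
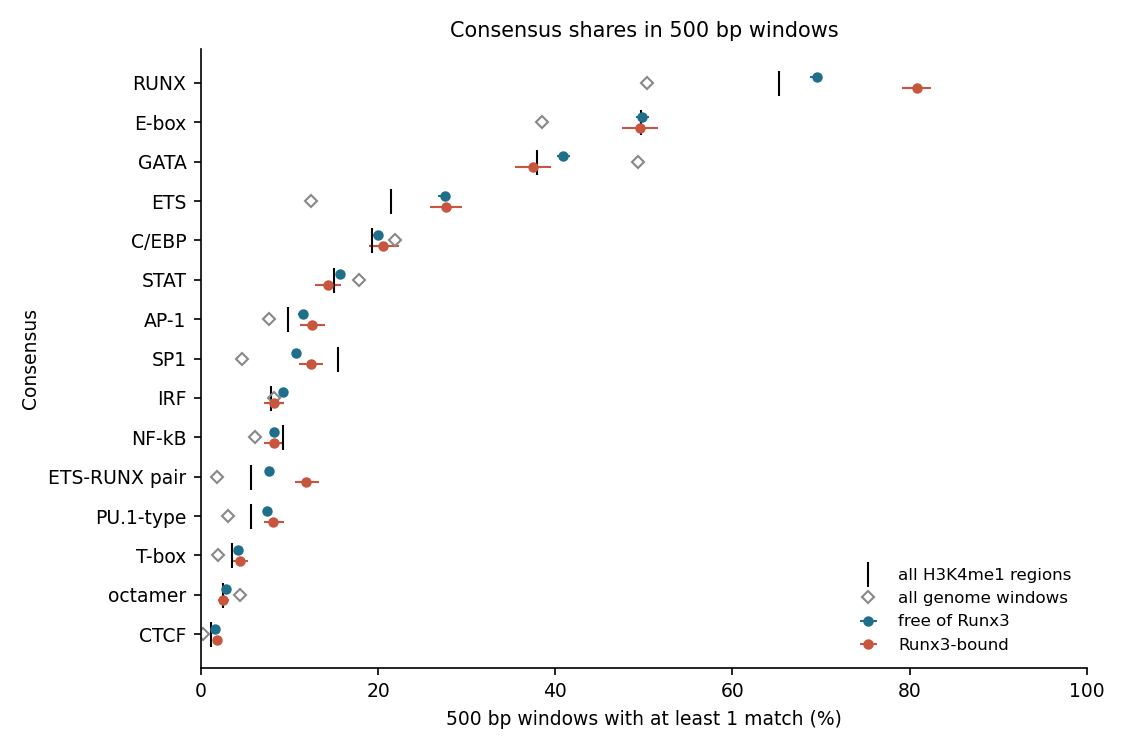
Share of 500 bp windows with at least 1 match (%) for each consensus, in narrow distal regions free of Runx3 (17357) and Runx3-bound (2266), with 95% Wilson intervals over regions, in all 49902 H3K4me1 regions and in all 5111018 genome windows of the same length. RUNX (69.5% and 80.8%) and the ETS-RUNX pair (7.67% and 11.9%) separate free from bound regions, whereas ETS (27.5% and 27.7%) sits far right of the genome windows (12.4%) in both.

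The distance to Runx3 was measured from edge to edge. The median gap from a member to the nearest Runx3 peak was 25.2 kb, with quartiles of 9177 and 70220 bp. For a bound region, the gap to the nearest peak other than those it overlapped had a median of 22974.5 bp (quartiles 9118.2 and 56829.5 bp). Only 163 members (0.939%) had a peak within 1 kb, and 13.2% had one within 5 kb. The share was 26.8% within 10 kb, 67.2% within 50 kb and 91.6% within 200 kb. Over all H3K4me1 regions, counting peaks that a region did not overlap, the shares were 5.05%, 18.8%, 31.8%, 71.4% and 93.1%. The farthest member was 6137308 bp from a peak. Bound regions had another peak within 5 kb in 12.6% (11.3 to 14.1%) and within 10 kb in 27.6% (25.8 to 29.5%), intervals that overlapped those of members. Within 50 kb the share was 72.0% (70.1 to 73.8%), above the 67.2% (66.5 to 67.9%) of members. Within 1 kb, bound regions had another peak in 0.794% (0.503 to 1.25%), beside 0.939% of members. The rule removed regions that a peak touched, and its effect on the members' share was not tested.

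The nearest peak was itself 5 kb or more from a TSS for 9912 members (57.1%) and under 1 kb from one for 5403 (31.1%). In the Runx3 list as a whole 45.1% of peaks were in the former class and 39.1% in the latter. The rule placed members 5 kb or more from a TSS, whereas the peak list had no such limit. The peaks nearest to bound regions were not classed in this way. Sequence content changed with distance. ETS matches were found in 23.3% (17.5 to 30.4%) of members under 1 kb from a peak, 25.4% at 5 to 10 kb, 28.0% at 20 to 50 kb and 31.2% (28.9 to 33.6%) at 200 kb or more. The share of pairs was 6.13%, 6.18%, 8.19% and 9.97% in the same classes. RUNX matches were found in between 66.4% and 72.2% of members in the 9 distance classes. Members far from every Runx3 peak therefore held RUNX and ETS letters as well as members close to one. The median GC content of the classes lay between 45% and 47.2%.

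**Figure D4:**
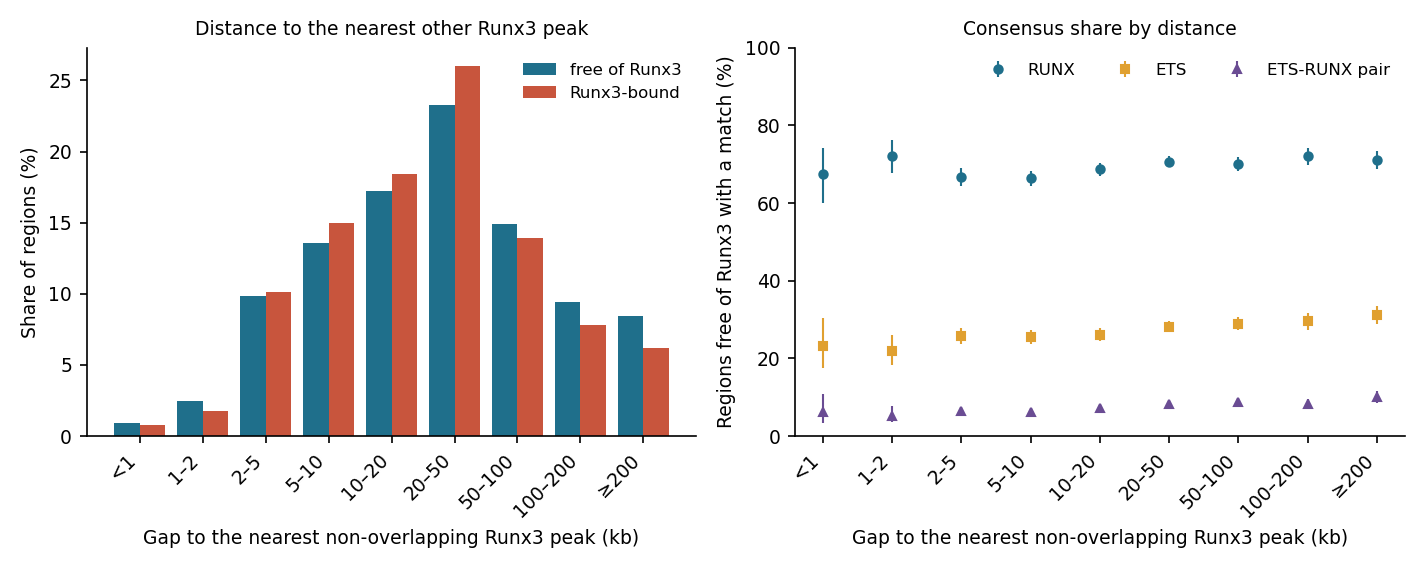
Left, share (%) of narrow distal regions free of Runx3 and Runx3-bound by the gap (kb, edge to edge) to the nearest Runx3 peak that they did not overlap. Right, share (%) of regions free of Runx3 with a RUNX match, an ETS match or an ETS-RUNX pair in the central 500 bp, by the same gap, with 95% Wilson intervals. The 20 to 50 kb class held 23.3% of free and 26.0% of bound regions, and the ETS share was lowest (21.9%) at 1 to 2 kb and highest (31.2%) at 200 kb or more.

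Most members lay inside genes, as did most H3K4me1 regions. By the position of the midpoint, 52.6% of members were in introns, 2.85% in exons and 44.5% between genes. Over all H3K4me1 regions these shares were 54.4%, 9.45% and 36.2%. Bound regions were more often intergenic than members, with 57.3% (55.3 to 59.3%), a difference of 12.8 points (10.6 to 14.9). Of the bound regions, 39.7% were in introns. Wide distal regions free of Runx3 were in introns in 68.6% of cases. The RUNX share of members was 68.3% in introns and 70.5% between genes, and that of bound regions was 83.0% and 79.2%. ETS was found in 26.2% of intronic and 29.3% of intergenic members, and in 28.6% and 26.7% of bound regions. The difference between members and bound regions in RUNX was thus present in both kinds of sequence.

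The members had a median distance of 20330 bp from the nearest TSS of any transcript. Of all members, 23.0% lay at 5 to 10 kb, 26.3% at 10 to 20 kb, 29.1% at 20 to 50 kb and 2.18% at 200 kb or more. The free share of narrow distal regions was 88.4% in the first of these classes and 91.5% (88.5 to 93.9%) in the last. Per chromosome it ran from 85.8% on chromosome 7 to 91.1% on chromosome 8. Members were sparse on chromosome X, with 1.52 per Mb, while autosomes held between 5.59 per Mb on chromosome 7 and 8.97 per Mb on chromosome 19. Chromosome X had only 286 narrow distal regions, bound or free. Of these 88.8% (84.6 to 92%) were free, beside 88.5% over all chromosomes, so its low density was not particular to members.

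Neighbouring H3K4me1 regions were also often free of Runx3. The nearest other H3K4me1 region was free for 76.0% (75.4 to 76.7%) of members, 68.9% (67 to 70.8%) of bound regions and 68.8% of all H3K4me1 regions. The median gap to that neighbour was 4627 bp for members and 4754 bp for bound regions.

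The limits of the rule cut through continuous distributions. The widest member measured 3179 bp and lay nearest to Nuak1, and the narrowest region left out for width was 1 bp wider. The member closest to a TSS was at 5002 bp near Adam17, and the region just outside was at 4997.5 bp near Rexo1. The smallest gap between a member and a Runx3 peak was 4 bp, near Akna, and the smallest overlap of a bound region was 15 bp, near Cdkn1b. There were 514 members under 5.5 kb from a TSS and 348 of 3000 bp or wider.

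Each region was assigned to the protein-coding gene with the nearest start, which need not be the gene it acts on. The 17357 members were nearest to 6750 of 22208 genes. Of these genes, 3193 had 1 member, 2637 had 2 to 4, 700 had 5 to 9 and 220 had 10 or more, and the last group held 2969 members. Genes with members often had Runx3 elsewhere. Of the 6750 genes, 4012 (59.4%) were also the nearest gene of at least 1 Runx3 peak. The share was 48.8% of 8108 genes that had other H3K4me1 regions only and 36.7% of all protein-coding genes. Counted over members, 72.8% shared their nearest gene with a Runx3 peak, a measure not taken for other H3K4me1 regions. For peaks within 1 kb of a gene's start, the midpoint of the peak and any annotated start of the gene were used. Such a peak was found for 31.0% of genes with 1 member and 48.2% of genes with 10 or more, against 27.3% of all genes. Counted over regions, the nearest gene had such a peak for 38.9% of members and 38.2% (36.2 to 40.2%) of bound regions. Over all H3K4me1 regions the share was higher, at 44.1% (43.7 to 44.5%).

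The 10 genes with the most members were led by Arid1b and Jarid2. Arid1b, a subunit of the SWI/SNF remodelling complex, and Jarid2, a partner of Polycomb repressive complex 2, had 29 each. They were followed by the proto-oncogene Myc with 28. Chd7, a chromodomain remodeller, Tbl1xr1, a corepressor subunit, and Tox, an HMG box factor needed for NKC development, had 24 each. Foxp1, Id2 and Zeb2 had 23 each, and the antiproliferative gene Btg1 had 22. The same genes had between 0 and 3 bound narrow distal regions, with 0 at Tbl1xr1 and 3 at Tox. Each of the 10 was the nearest gene of at least 1 Runx3 peak, and 4 of them (Arid1b, Jarid2, Id2 and Btg1) had a peak within 1 kb of the start. The wide distal regions nearest to Id2 numbered 24, of which 16 were bound.

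These genes differed in how far their members lay from Runx3. The gap at Id2 ran from 2.18 to 245.9 kb with a median of 8.98 kb, and 22 of the 23 members were intergenic. At Foxp1 all 23 members were intronic, with a median gap of 11.8 kb. At Arid1b 26 of 29 were intronic, with a median gap of 34.9 kb. The members of Myc lay between 59.3 and 897.8 kb from its start, with a median gap of 87.9 kb to a peak. Over the 249 members at the 10 genes, 64.3% (58.1 to 70%) held RUNX and 29.3% (24.0 to 35.3%) ETS. The members at Myc held RUNX in 14 of 28 cases and those at Jarid2 in 23 of 29, and these counts are small.

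Genes of NKC function were described by lists. The check of the cell type came first. The 8 NKC markers Ncr1, Klrb1c, Klrk1, Klrd1, Gzma, Prf1, Eomes and Tbx21 were nearest to 47 H3K4me1 regions and each had at least 1. The 8 T cell markers had 22 regions, with Cd4 and Cd8a at 0. The 8 B cell markers had 20, with Ms4a1 and Cd79a at 0, and the 8 myeloid markers had 7, with Lyz2, Elane and S100a8 at 0. Of the 47 regions, 19 were at Eomes, whereas Klrk1, Prf1 and Tbx21 had 2 each and Klrd1 had 1. Cd28 had 11 of the T cell regions, and Ebf1 had 8 and Pax5 had 6 of the B cell regions, so single markers of other lineages had more regions than some NKC markers. Counted in members, the NKC markers had 16, T cell markers 6, B cell markers 4 and myeloid markers 0.

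Of narrow distal regions nearest to NKC receptor and adaptor genes, 70 of 72 were free of Runx3 (97.2%, 90.4 to 99.2%), beside 88.5% over all genes. The 2 bound regions lay at Sh2d1a, the SLAM adaptor, and Tigit, an inhibitory receptor. The largest numbers of members were 7 at Cd226, an activating receptor, and 4 at each of Cd247, the zeta chain, Fcgr3, the Fc receptor CD16, and Klri1. The median over the 37 genes was 2 members, as it was for the trafficking and the cytokine receptor lists. Over all protein-coding genes it was 0, since 69.6% of them had no member. Free of Runx3 did not mean that these genes lacked it. Of 49 wide distal regions at the same genes 31 were bound, and 22 of the 37 genes (59.5%) had a peak within 1 kb of the start. The narrow distal regions of this list had a median width of 1429 bp, against 1549 bp over all genes. By the nearest start of any transcript the free share of the list was 96.4% (87.7 to 99%), an interval that includes 88.5%.

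Cytotoxic and cytokine effector genes had 54 free regions of 56 (96.4%, 87.9 to 99.0%), an interval that includes the 88.5% over all genes. Ifng, which encodes interferon gamma, had 16 members and no bound narrow distal region. Its members were all intergenic, at 14.1 to 209.3 kb from the start, and the gap to the nearest Runx3 peak ran from 1.31 to 49.8 kb with a median of 10.5 kb. Of the 16, 9 held RUNX and 5 held ETS. Of the 9 wide distal regions at Ifng, 7 were bound. Lyst followed with 14 members at a median gap of 7.20 kb, of which 11 held RUNX. Xcl1, a chemokine, had 5 members and Tnfsf10, the death ligand TRAIL, had 4. The 2 bound regions lay at Fasl, the Fas ligand gene, and Srgn, the granule proteoglycan. Of the 29 genes, 12 had a member and 19 had a peak within 1 kb of the start.

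For trafficking receptors and integrins the free share was 67 of 72 (93.1%, 84.8 to 97%), beside 88.5% over all genes, which the interval includes. S1pr1, the receptor of lymphocyte egress, had 12 members, and Cxcr4, a bone marrow homing receptor, had 11 members and 3 bound regions. The integrin genes Itga1 and Itga4 had 6 each, with median gaps of 73.3 and 24.0 kb. Ccr7 had 3 members and 1 bound region. At cytokine receptors and signalling genes 103 of 119 regions were free (86.6%, 79.3 to 91.6%), and this interval also includes 88.5%. Smad7, an inhibitor of TGF-beta signalling, had 21 members and 3 bound regions, and the receptor gene Tgfbr2 had 12 members and 5 bound regions. Il7r had 7 members and Il21r had 6.

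Lymphoid transcription factor genes, the longest list, held the most members and also the most narrow distal regions of any list. They had 431 free regions of 479 (90%, 87 to 92.4%), an interval that includes the 88.5% over all genes. Of the 49 genes, 46 had at least 1 member, with a median of 7. Beside Myc, Tox, Foxp1 and Id2, Ets1 had 21 members and 3 bound regions and Gata3 had 14 and 3. Of 265 wide distal regions at these genes 156 were bound. The members of this list held RUNX in 64.7% (60.1 to 69.1%) and ETS in 27.6% (23.6 to 32%) of cases, with a median gap of 15.1 kb to a Runx3 peak. Over all 725 members at the 5 lymphocyte lists the values were 67% (63.5 to 70.4%) and 27.6% (24.5 to 31.0%), with a pair in 4.97% (3.61 to 6.80%) beside 7.67% of all members and a median gap of 12.6 kb beside 25.2 kb.

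Genes of other lineages were counted in the same way, over lists of different length. T cell identity genes had 40 free regions of 44 (90.9%), led by the costimulatory receptor genes Ctla4 and Icos with 8 members each, the kinase gene Zap70 with 5 and Cd28 with 4. B cell identity genes had 27 of 32 (84.4%), led by Bcl11a with 11, and Ebf1 and Pou2af1 with 3 each. Myeloid genes had 17 of 20 (85.0%), with 6 members at Ly86 and 3 at Fcgr1. Synaptic genes had 34 of 37 (91.9%), of which 13 lay in Nrxn3 and 6 at Dlg2. The interval of the free share of each of these 4 lists includes the 88.5% over all genes. The median over the genes of each of these 4 lists was 0, as it was for the effector genes, the ribosomal protein genes and all protein-coding genes. The members at synaptic genes were a median of 107 kb from the nearest Runx3 peak.

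Ribosomal protein genes had the lowest free share of the lists, with 14 of 20 regions (70%, 48.1 to 85.5%). Their narrow distal regions had a median width of 2062.5 bp, the largest of the 10 lists, and the free share fell with width over all regions. By the nearest start of any transcript the share of the list was 80% (37.6 to 96.4%), and with starts within 50 kb it was 72.7% (43.4 to 90.3%), so both intervals include 88.5%. Rpl38 had 4 members and 2 bound regions, Rpl5 had 3 and Rpl11 had 2. A Runx3 peak lay within 1 kb of the start in 29 of the 42 genes (69.0%).

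**Figure D5:**
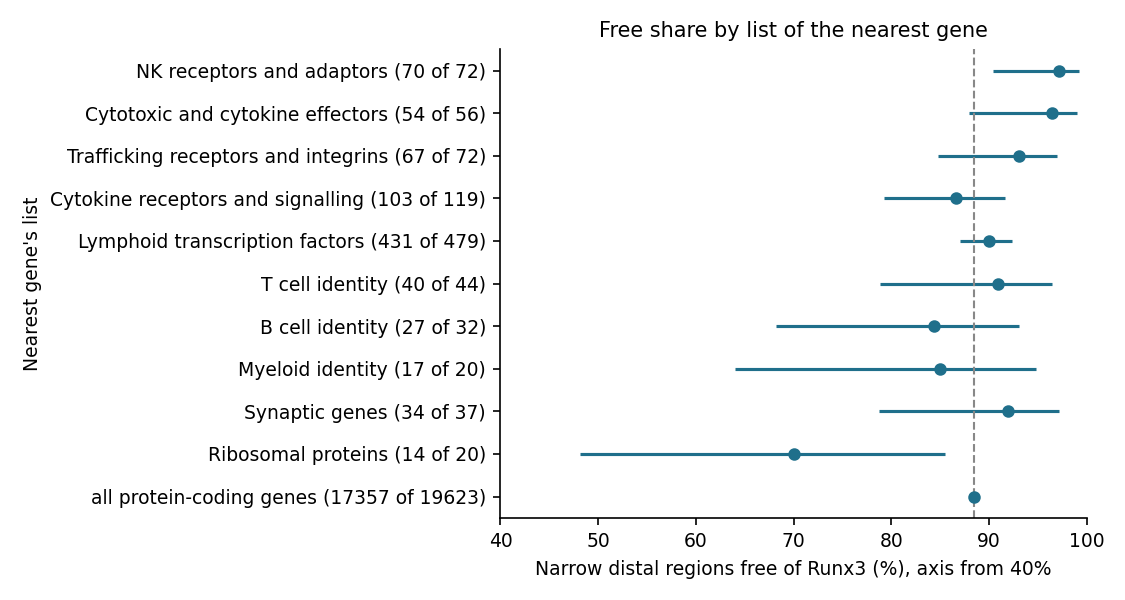
Share of narrow distal H3K4me1 regions free of Runx3 (%, axis from 40%) by the list of the nearest protein-coding gene, with 95% Wilson intervals over regions. Counts in brackets are free and all narrow distal regions, and the dashed line marks 88.5% over all genes. NK receptors and adaptors (97.2%) and ribosomal proteins (70%) lie at the ends.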

How the data were processed

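ChIP-seq with antibodies to Runx3 and H3K4me1 and with NIS was deposited as 3 samples, 1 per group. According to the labels and methods, the authors aligned 40 bp Illumina reads to mm9 with ELAND (CASAVA 1.7 in the submitters' processing notes), joined the reads of biological repeats and called enriched regions with MACS against NIS. The labels call each sample a first experiment, so it is uncertain whether the lists rest on joined or single libraries. The deposited files are 2 coordinate lists without score, signal or count, so the depth at each region is unknown (library read totals are stated by the study) and the NIS library contributes no list of its own. The values used are the start and end positions, as deposited by the authors.

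From these, overlap (at least 1 bp), width, distances and nearest genes were computed with Python 3.11.15, numpy 2.4.6, pandas 2.3.3 and scipy 1.17.1. TSSs came from GENCODE M1 on the mm9 sequence, at 86803 positions. Consensus matches were searched on both strands in 500 bp about each midpoint, in windows 2 kb to either side and in 5111018 tiles of the genome, and the search was tested on simulated data. Matches can share bases between motifs. Shares have 95% Wilson intervals and differences have Newcombe intervals. With 1 list per antibody no test was run. The members, the gene lists, the markers and the consensus sequences were chosen with earlier results of these data known. Named genes were the 10 nearest to the most members (ties alphabetical) and, from each of 10 lists with 321 entries, up to 4 with the most members and up to 2 with the most bound regions. The sequences shown followed a fixed rule of class and distance from the start, and chromosome 18 was not used for them. Of the listed genes, Ptcra and Cebpd had no match by name. A total of 1 member ended past the end of its chromosome. Some named genes and a neighbouring gene at the width limit are not reported here.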

Additional observations from a re-analysis of the deposited data

How the results depend on the processing

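The number of members lay between 11718 (width under the list's median) and 19656 (protein-coding transcript starts) under the 5 alternatives. The differences below are bound minus free, in percentage points. For RUNX (11.3) they were 6.66 in the central 1000 bp, 4.72 in whole regions, 5.22 under 1500 bp, 16.6 at 1500 to under 2500 bp and 23.3 with bound windows about the Runx3 peak midpoint. For ETS (0.205) they were 7.14 in whole regions, -2.64 at 45 to under 50% GC, -7.66 under 1500 bp, 8.34 at 2500 bp or wider and 6.74 about the peak midpoint. For the pair (4.20) they were 1.17 in the central 200 bp, 6.50 in the central 1000 bp, 8.73 in whole regions, 2.77 at 45 to under 50% GC, 0.0246 under 1500 bp, 9.26 at 2500 bp or wider and 9.23 about the peak midpoint. Width classes and windows about the peak were chosen after seeing the data. Bound regions are wider, so whole regions give them more bases to search. The GATA difference (-3.41) reversed to 7.87 in whole regions, and the other 11 consensus sequences there differed by 1.76 to 9.46 points. Of these, IRF (-1.09), STAT (-1.40), E-box (-0.289), NF-kB (-0.042) and the octamer (-0.346) also turned from negative to positive, to 6.20, 9.41, 7.05, 6.79 and 3.07, from central intervals that included 0. The median gap to Runx3 was 52.4 kb when only peaks 5 kb or more from a start were used. The fall in free share from 0 to 3 or more RUNX matches (13.2 points) was 18.5 in the central 200 bp, and 85.3% of members had a free neighbour when neighbours were under 3.18 kb. The cause of these shifts was not tested. Over the 33 results, 50 of 82 alternative values stayed the same, 31 moved and 1 reversed. Same means inside the main interval or, for results without an interval, within 1.5 times the main value. Reversed means a change of sign from a main interval that excluded 0. Repeats in lower case are not marked in the genome used (0 lower-case bases), so that alternative was not run. No paired analysis was possible because each group had 1 sample. Depth limits what a missing peak means, and the depth at each region was not known.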
